A study of Mus musculus with 9 samples.

Results

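The light-strand mitochondrial tRNAs are the 8 mouse tRNAs for glutamine, alanine, asparagine, cysteine, tyrosine, glutamate, proline and the UCN codons of serine (mt-Gln, mt-Ala, mt-Asn, mt-Cys, mt-Tyr, mt-Glu, mt-Pro and mt-Ser-TGA). Their fragments were followed here in blood serum. A read was taken as a member when every reference it aligned to was a mature mitochondrial tRNA of one of these families. This gave 2312 reads of 705 distinct sequences, out of 555585 tRNA reads of 41240 distinct sequences, or 0.416% of all tRNA reads. No member read was shared between families, and 1 read that aligned to both mt-Tyr and mt-His was left out.

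Mitochondrial DNA is copied from both strands into long precursors in which tRNAs stand between the protein and ribosomal RNA genes. RNase P cuts such precursors at the 5′ end of each tRNA, RNase Z cuts at the 3′ end, and a CCA tail that the gene does not encode is then added. Most mitochondrial tRNA genes lie on the heavy strand. The light-strand ones share their strand with the single protein gene ND6, and alanine, asparagine, cysteine and tyrosine form a cluster (WANCY, after the 1-letter amino acid codes, with the heavy-strand tryptophan tRNA at its head). Cleaved tRNAs circulate in blood as short fragments and as longer pieces cut in the anticodon loop.

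The study sequenced tRNA fragments from mouse serum at week 20 in 3 groups of 3 libraries. The first had a high fat diet with salvianolic acid B (SalB, a polyphenol of the danshen root), the second the high fat diet alone, and the third a normal diet. The design text calls the high fat diet group the atherosclerosis model, and the question was how SalB alters serum tRNA fragments in it. Only the normal diet titles carry a strain name (C57). Genotype, sex, dose and route, and the strain of the other groups, are not stated in the labels used here, so strain and diet cannot be told apart in comparisons with the normal diet. Nothing states that the libraries came from separate animals, so the p-values measure only the spread between these libraries. The files hold tRNA reads alone, so no marker of a tissue or cell type could be examined. In serum, fewer cells releasing a fragment and less RNA released per cell cannot be told apart.

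The libraries held between 28191 and 156333 tRNA reads, with a median of 44415. SalB library 2 stood apart: 41.7% of its reads came from a precursor of the nuclear tRNA Leu-CAG, against at most 2.56% in the other libraries, and its scaling factor was 0.573. Levels are therefore given as normalised RPM (reads in every 1000000 tRNA reads), after a TMM (trimmed mean of M-values) scaling. Other scalings moved the median fold change of all tested families by as much as -0.45 on the log2 scale in comparisons with SalB. Fewer than 10 reads lay behind many values of the rarer families, and intervals from counts cover counting error only.

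The sequences on which the results turn are shown first, as read in cDNA, 5′ to 3′. Bases are numbered from 1, the 5′ terminal base of the tRNA, and the genes are placed on GRCm38.p6 by RefSeq. mt-Ser-TGA (TrnS1, chrM:6870-6938) gave 1496 of the 2312 reads. Its most abundant forms ran from base 1 to 21 and from base 1 to 26. A form that starts 1 base later and a form with a changed base were chosen after their values had been seen. Capitals mark the bases beyond position 21 in the second and the third line and the changed base C29T in the fourth.
Ser-TGA 1 to 21: gagaaagacatataggatatg
Ser-TGA 1 to 26: gagaaagacatataggatatgAGATT
Ser-TGA 2 to 23: agaaagacatataggatatgAG
Ser-TGA 1 to 30, C29T: gagaaagacatataggatatgagattggTt

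The asparagine (TrnN, chrM:5089-5159) and glutamine (TrnQ, chrM:3772-3842) tRNAs gave long 5′ pieces that stop in or beside the anticodon. The asparagine piece is shown in its reference form, with the anticodon in capitals, and with the changed base A9G. The most abundant glutamine form ended 1 base past its anticodon, which is in capitals.
Asn 1 to 34: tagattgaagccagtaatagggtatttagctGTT
Asn 1 to 34, A9G: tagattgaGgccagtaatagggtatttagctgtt
Gln 1 to 36: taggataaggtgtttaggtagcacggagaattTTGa

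Glutamate (TrnE, chrM:14071-14139) and tyrosine (TrnY, chrM:5260-5326) gave 3′ pieces that carry the added CCA tail. The glutamate piece began in the 3′ strand of the anticodon stem. The tyrosine piece began at the first base after the anticodon, where the capital marks the changed base A32T.
Glu 38 to 72: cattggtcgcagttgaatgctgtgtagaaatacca
Tyr 32 to 70, A32T: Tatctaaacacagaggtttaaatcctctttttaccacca

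The remaining families are alanine (TrnA, chrM:5018-5086), cysteine (TrnC, chrM:5192-5257) and proline (TrnP, chrM:15356-15422). Their most abundant sequences held between 2 and 5 reads each and are not printed.

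Fragments of the serine tRNA dominated the light-strand set, and no light-strand family passed the test in any comparison. Per base of tRNA length, and averaged over the 9 libraries, Ser-TGA stood at 45.8 normalised RPM. Glu followed at 7.42, Gln at 5.47, Asn at 2.98, Cys at 2.44, Tyr at 1.88, Ala at 1.81 and Pro at 1.16 on the same per-base scale. The lowest Ser-TGA library, at 1504 normalised RPM, lay above the highest library of any other member, at 676 for Glu. Below Ser-TGA, each family overlapped its neighbours in this order across the 9 libraries, so that these ranks lie within the spread.

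**Figure D1:**
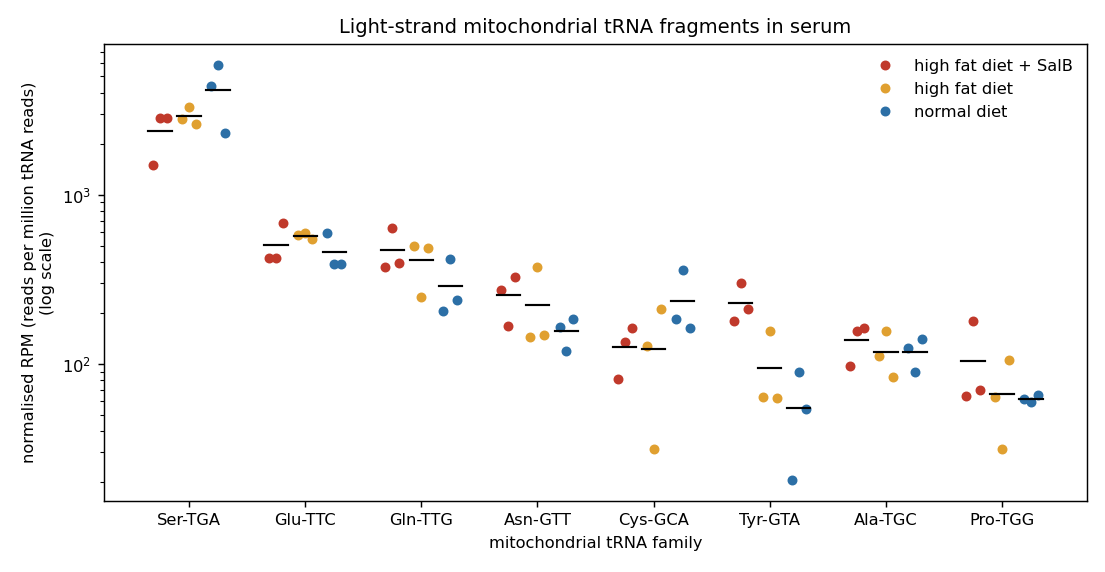
Normalised RPM (reads in every 1000000 tRNA reads, log axis) for the 8 light-strand mitochondrial tRNA families, 1 point per library, with a bar at the mean of 3 libraries, in high fat diet with SalB (red), high fat diet (yellow) and normal diet (blue). Ser-TGA lies above the other families in every library, and in Tyr-GTA the 3 SalB points lie above the other 6.

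As a share of all tRNA reads, light-strand reads made up 0.297%, 0.276% and 0.518% in the SalB libraries, 0.494%, 0.557% and 0.455% in the high fat diet libraries, and 0.649%, 0.799% and 0.345% in the normal diet libraries. Both SalB and high fat diet ranges overlapped the normal diet range. The mean share was 0.364% ± 0.134 with SalB, 0.502% ± 0.0515 on the high fat diet and 0.597% ± 0.231 on the normal diet (SD, n = 3 each). Counted over mature references only, which leaves out the Leu-CAG precursor, the mean was 0.507% with SalB, 0.539% on the high fat diet and 0.643% on the normal diet.

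Among reads of mature mitochondrial tRNAs the picture was different. Light-strand reads were 1.93%, 3.44% and 3.11% of these in the SalB libraries, 18.2%, 17.4% and 16.6% in the high fat diet libraries, and 24.9%, 26.1% and 19.4% in the normal diet libraries. The SalB libraries lay far below both other groups, without overlap. The heavy-strand counts, the other part of this ratio, went the other way. They numbered 9425, 12141 and 6486 with SalB, against 1234, 745 and 1018 on the high fat diet and 841, 703 and 1358 on the normal diet. Normalised, the heavy-strand sum was 146369 ± 9454 RPM with SalB, 21441 ± 1778 on the high fat diet and 17636 ± 3129 on the normal diet (SD, n = 3 each). Most of the heavy-strand reads came from mt-His (18109 over the 9 libraries) and mt-Ser-GCT (14206). In normalised RPM, the light-strand sum was 4221 ± 1065 with SalB, 4505 ± 346 on the high fat diet and 5551 ± 1928 on the normal diet (SD, n = 3 each), and the groups overlapped.

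Of the 8 families, 4 (Ser-TGA, Glu, Gln and Asn) passed the filter on low reads and entered the test, limma-voom over 103 tRNA families with Benjamini-Hochberg adjustment at 0.05. With SalB against the high fat diet 0 of these 4 were called, where 26.2% of all tested families were. For high fat diet against normal diet the count was 0 of 4, beside 0% of all tested families, and for SalB against normal diet 0 of 4, beside 26.2%. None of the 4 had an unadjusted p under 0.05 in any of the 3 comparisons, where 46.6%, 5.83% and 39.8% of all tested families had, and limma on log2 values likewise called 0 in each. The 3 comparisons share libraries and are not independent of each other. The median log2 fold change over the 4 was -0.04 with SalB against high fat diet, 0.32 for high fat diet against normal diet and 0.32 with SalB against normal diet, beside 0.18, -0.03 and 0.20 over all tested families.

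**Figure D2:**
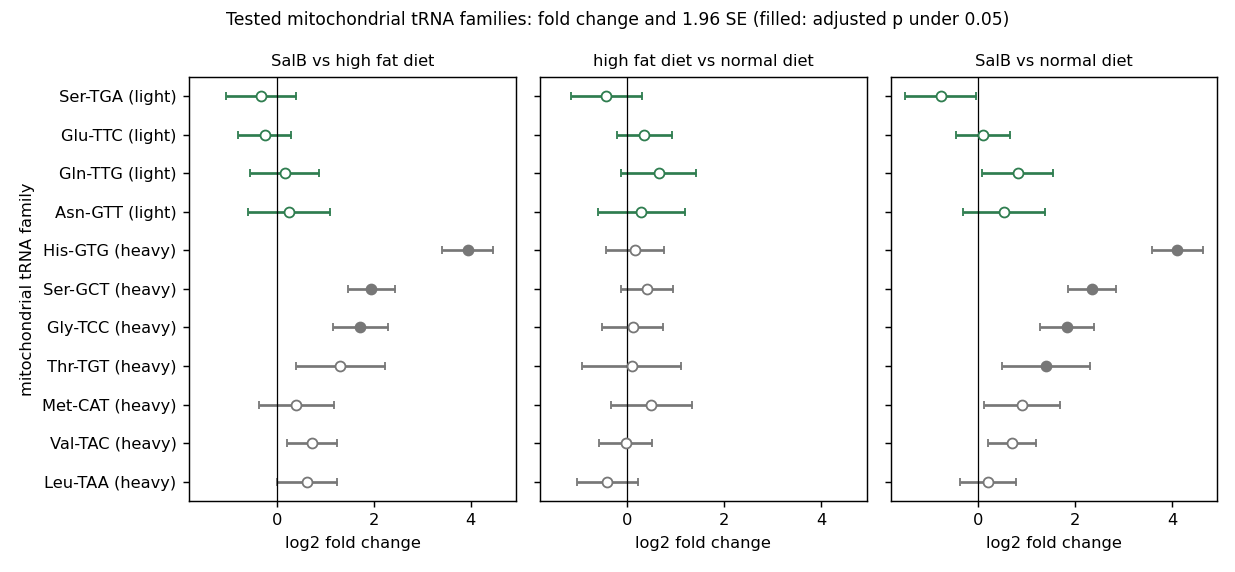
Log2 fold change with an approximate 95% interval from its standard error for the mitochondrial tRNA families that entered the test, in 3 comparisons (panels), light-strand families in green and heavy-strand families in grey; filled points have an adjusted p under 0.05. All 4 light-strand points are open in every panel, whereas His-GTG, Ser-GCT and Gly-TCC are filled in both SalB panels.

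The serine tRNA mt-Ser-TGA reads the UCN codons and is the largest member. Its reads numbered 93, 253 and 122 in the SalB libraries, 175, 106 and 124 in the high fat diet libraries, and 213, 197 and 213 in the normal diet libraries. Normalised, it stood at 2391 ± 768 with SalB, 2902 ± 363 on the high fat diet and 4182 ± 1787 RPM on the normal diet (SD, n = 3 each). Normal diet libraries 1 and 2 were the highest of the 9, but library 3 of that group fell among the others, so the groups overlapped. The log2 fold change was -0.33 (SE 0.37, limma-voom adjusted p 0.526) with SalB against high fat diet. It was -0.44 (SE 0.37, limma-voom adjusted p 0.911) for high fat diet against normal diet and -0.77 (SE 0.37, limma-voom adjusted p 0.143) for SalB against normal diet. Without normal diet library 3 the last of these was -1.14, with a limma-voom adjusted p of 0.0490.

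Reads of Ser-TGA were short 5′ pieces, with 77.5% starting at base 1 and none reaching the 3′ end. The last base covered by any read was base 64 of 72 with CCA. In 32.4% the read ran from base 1 to 21, and in 18.0% from base 1 to 26, both before the anticodon at bases 31 to 33. The mean length was 22.2 ± 1.43 bases with SalB, 22.8 ± 0.635 on the high fat diet and 22.96 ± 0.702 on the normal diet (SD, n = 3 each).

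**Figure D3:**
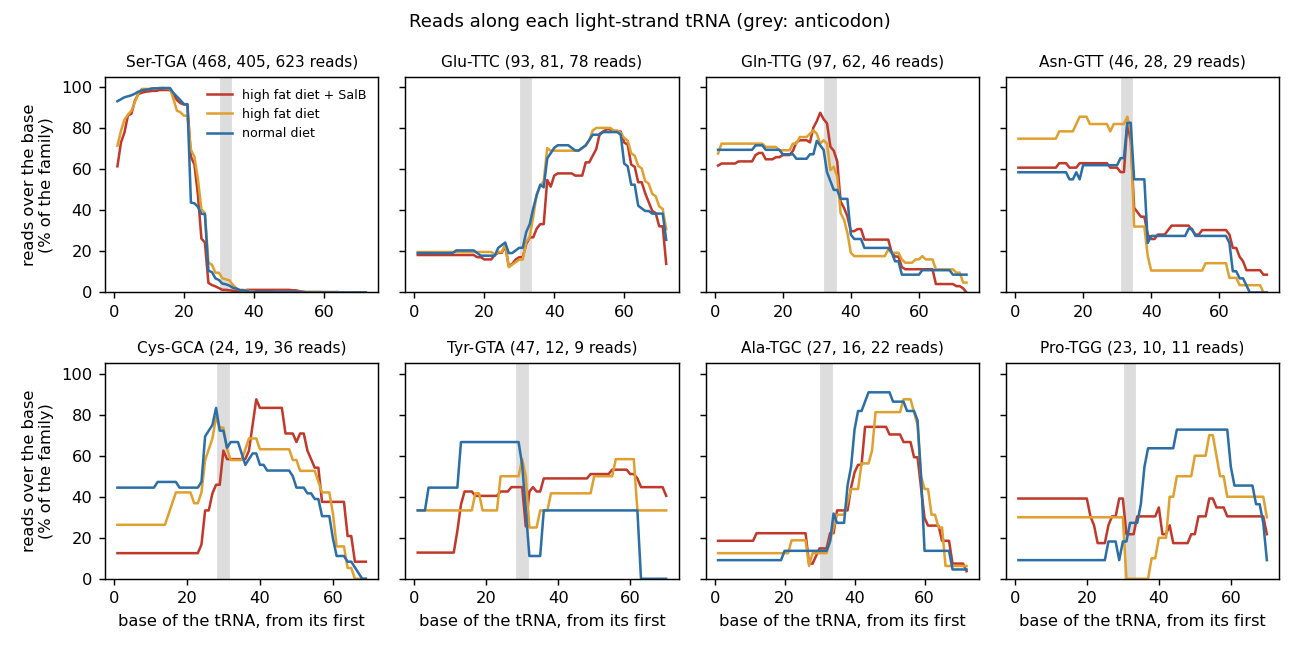
Share of each family's reads that cover each base of the tRNA (percent, reads of a group pooled), from base 1 through the added CCA, for high fat diet with SalB (red), high fat diet (yellow) and normal diet (blue), with read numbers in that order above each panel and the anticodon in grey. Most Ser-TGA reads end before the anticodon, Gln and Asn reads drop at it, and Glu reads lie mainly after it.

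Of the 705 light-strand sequences only 2 passed the filter on low reads, the Ser-TGA forms from base 1 to 21 and from base 1 to 26. The 21-base form numbered 1, 82 and 23 reads in the SalB libraries, 19, 15 and 12 in the high fat diet libraries, and 113, 91 and 37 in the normal diet libraries. Normalised, SalB library 1 stood at 17.5 RPM and SalB library 2 at 1113, so that the spread within the SalB group was wide, and normal diet library 3, at 369, lay within the range of the other groups. The log2 fold change was -0.27 (SE 1.22) with SalB against high fat diet, -2.03 (SE 1.11) for high fat diet against normal diet and -2.30 (SE 1.12) with SalB against normal diet. The median over all tested fragments was -0.30, -0.05 and -0.31 in the same order. The limma-voom adjusted p was 0.862, 0.504 and 0.113 in these comparisons, and none was called. A fit of all 41240 sequences, without a filter on low reads, called it lower in high fat diet against normal diet (-2.02, SE 0.43, limma-voom adjusted p 0.00426). The same fit called it lower with SalB against normal diet (-2.38, SE 0.43, limma-voom adjusted p 6.28e-06). On the same counts, the filtered fit gave the larger SE of 1.11 and 1.12. For SalB against normal diet the share of all sequences called without a filter is not given, so that call says nothing particular to this form. The change with SalB against normal diet was also called when scaled by total reads (-2.91, limma-voom adjusted p 0.00866) and with the stricter filter (-2.57, limma-voom adjusted p 0.0273). In the filtered fit without SalB library 1, the value with SalB against high fat diet changed sign to 1.38 (limma-voom adjusted p 0.213). That with SalB against normal diet shrank to -0.66 (limma-voom adjusted p 0.509). Without normal diet library 3 the change with SalB against normal diet was called, at -3.16 (limma-voom adjusted p 0.0427).

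The 26-base form numbered 6, 8 and 32 reads in the SalB libraries, 17, 11 and 17 in the high fat diet libraries, and 21, 23 and 68 in the normal diet libraries. Its level in every high fat diet library lay below every normal diet library, as 23.6% of all tested fragments did not overlap in this comparison. SalB library 3, at 770.3 normalised RPM, was the highest of the 9 libraries, and SalB libraries 1 and 2, at 105.1 and 108.6, were the lowest. With SalB against normal diet it was lower, with a log2 fold change of -1.67 (SE 0.57, limma-voom adjusted p 0.0351). This is 1 called fragment of the 2 tested, where 42.4% of all tested fragments were called and 25.1% were called lower. That call was lost without SalB library 1 (limma-voom adjusted p 0.174), SalB library 2 (0.195), normal diet library 2 (0.0853), normal diet library 3 (0.109) or high fat diet library 1 (0.0510). It was also lost with RLE size factors (limma-voom adjusted p 0.0694), with limma on log2 values (0.0919), from reads with no mismatch (0.0535) and in a fit of the 2 groups alone (0.0750). Over all alternatives its adjusted p ranged between 0.00482 and 0.195, always with a negative sign.

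Against the high fat diet, SalB gave a log2 fold change of -0.75 (SE 0.61, limma-voom adjusted p 0.345) for the 26-base form. High fat diet against normal diet gave -0.92 (SE 0.55, limma-voom adjusted p 0.549). Of the tested light-strand fragments 0 of 2 were called in each of these comparisons, beside 33.8% and 0% of all tested fragments. Neither fragment had an unadjusted p under 0.05 there, where 47.7% and 11.7% of all tested fragments had, and limma on log2 values also called 0 of 2.

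The first base of Ser-TGA reads set the normal diet libraries apart from the others. Reads starting at base 1 made up 41.9%, 56.1% and 87.7% in the SalB libraries, 64.6%, 75.5% and 78.2% in the high fat diet libraries, and 94.8%, 92.9% and 92.0% in the normal diet libraries. The 3 normal diet libraries lay above all 6 others. The mean was 61.9% ± 23.4 with SalB, 72.8% ± 7.22 on the high fat diet and 93.2% ± 1.44 on the normal diet (SD, n = 3 each).

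High fat diet against normal diet differed by -20.5 percentage points and SalB against normal diet by -31.3 points, each with a p of 0.1 by exact two-sided permutation. This is the smallest p that 3 libraries against 3 allow, and it was 0.45 after adjustment over the 9 share tests made. SalB against high fat diet differed by -10.8 points (exact permutation p 0.6, adjusted 0.9), and those groups overlapped.

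Starts after base 1 were mostly by a few bases, with 2.61% of all Ser-TGA reads starting at base 8 or later. Starts at bases 2 to 7 accounted for 49, 102 and 14 reads in the SalB libraries, 57, 21 and 26 in the high fat diet libraries, and 5, 10 and 14 in the normal diet libraries. SalB library 3 held the fewest such reads of its group, as many as normal diet library 3. Among all Ser-TGA reads, starts at base 2 numbered 89, at base 3 51, at base 4 52, at base 6 52 and at base 7 39, so no single site accounted for them.

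The most abundant late-starting form, from base 2 to 23, was singled out after its values were seen and did not pass the filter on low reads. It numbered 7, 23 and 3 reads in the SalB libraries, 10, 2 and 4 in the high fat diet libraries, and 0, 0 and 1 in the normal diet libraries. Normalised over the groups' reads, it was 19.7 times as high on the high fat diet as on the normal diet (95% interval 3.06 to 825) and 35.5 times as high with SalB as on the normal diet (5.94 to 1443), from a single normal diet read. With SalB against high fat diet the ratio was 1.80 (0.965 to 3.51). The fit without a filter called it higher in high fat diet against normal diet (limma-voom adjusted p 0.000369) and with SalB against normal diet (limma-voom adjusted p 6.59e-09). Since the form was picked on these same values, the calls lend no support to a difference.

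**Figure D4:**
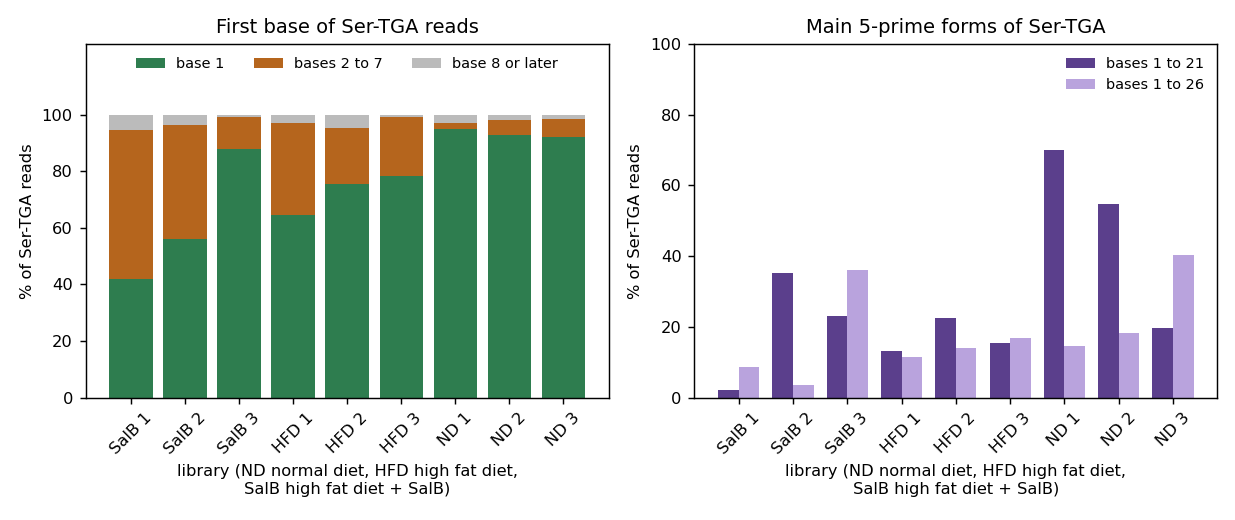
Percent of mt-Ser-TGA reads in each library by first base (left, stacked bars) and percent that run from base 1 to 21 or from base 1 to 26 (right, paired bars). Starts at base 1 make up 92.0% or more in the normal diet libraries and 87.7% or less in the other 6, and the 21-base form ranges between 2.15% in SalB library 1 and 69.95% in normal diet library 1.

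The glutamate tRNA mt-Glu, whose gene lies between ND6 and cytochrome b, differed in shape from the serine tRNA. Its reads numbered 26, 38 and 29 in the SalB libraries, 36, 19 and 26 in the high fat diet libraries, and 29, 13 and 36 in the normal diet libraries. Normalised, it stood at 507 ± 147 with SalB, 571 ± 23.2 on the high fat diet and 457 ± 119.5 RPM on the normal diet (SD, n = 3 each), and all groups overlapped. The log2 fold change was -0.25 (SE 0.28, limma-voom adjusted p 0.526) with SalB against high fat diet, with an approximate 95% interval of -0.79 to 0.30. It was 0.35 (SE 0.29, limma-voom adjusted p 0.911) for high fat diet against normal diet and 0.10 (SE 0.28, limma-voom adjusted p 0.811) with SalB against normal diet, and the last changed sign under several settings.

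Of the Glu reads 41.3% reached the 3′ end and 19.0% started at base 1. The commonest start after base 1, with 44 reads, was base 38. Reads reaching the 3′ end made up 37.3% ± 12.7 with SalB, 48.6% ± 8.38 on the high fat diet and 43.8% ± 18.3 on the normal diet (SD, n = 3 each). The differences of -11.3 (SalB against high fat diet), 4.78 (high fat diet against normal diet) and -6.51 points (SalB against normal diet) had exact permutation p-values of 0.4, 0.8 and 0.7, each 0.9 after adjustment. Starts at base 1 made up 19.0% ± 5.18 with SalB, 20.6% ± 6.53 on the high fat diet and 21.6% ± 7.98 on the normal diet (SD, n = 3 each), and differed between groups by less than their spread.

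The glutamine tRNA mt-Gln numbered 23, 57 and 17 reads in the SalB libraries, 31, 8 and 23 in the high fat diet libraries, and 10, 14 and 22 in the normal diet libraries. Its normalised level was 468 ± 146 with SalB, 409 ± 138 on the high fat diet and 287 ± 114 RPM on the normal diet (SD, n = 3 each). These groups overlapped, with SalB library 2 the highest of all. The log2 fold change was 0.17 (SE 0.36, limma-voom adjusted p 0.756) with SalB against high fat diet. It was 0.65 (SE 0.39, limma-voom adjusted p 0.911) for high fat diet against normal diet and 0.82 (SE 0.37, limma-voom adjusted p 0.126) with SalB against normal diet. Of all Gln reads 65.4% started at base 1 and 43.9% were 5′ pieces that ended in the anticodon loop. Ends of these 5′ reads gathered at base 36, with 36 reads, and at base 33, with 22 reads, on either side of the rest of the anticodon.

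In the WANCY cluster only the asparagine tRNA entered the test. mt-Asn numbered 17, 15 and 14 reads in the SalB libraries, 9, 12 and 7 in the high fat diet libraries, and 8, 4 and 17 in the normal diet libraries. Its normalised level was 256 ± 81.2 with SalB, 222 ± 132 on the high fat diet and 156 ± 33.3 RPM on the normal diet (SD, n = 3 each), with overlap between all groups. The log2 fold change was 0.25 (SE 0.43, limma-voom adjusted p 0.705) with SalB against high fat diet, 0.29 (SE 0.46, limma-voom adjusted p 0.914) for high fat diet against normal diet and 0.53 (SE 0.43, limma-voom adjusted p 0.346) with SalB against normal diet. Of the 66 Asn reads that started at base 1, 33 ended at base 34, the last base of the anticodon.

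The tyrosine tRNA mt-Tyr did not pass the filter on low reads. It numbered 11, 27 and 9 reads in the SalB libraries, 4, 5 and 3 in the high fat diet libraries, and 1, 3 and 5 in the normal diet libraries. Its normalised level was 229.7 ± 64.0 with SalB, 94.3 ± 53.4 on the high fat diet and 54.7 ± 34.4 RPM on the normal diet (SD, n = 3 each). After TMM scaling, every SalB library lay above every library of the other groups. At that scaling, of the 8 light-strand families it alone showed no overlap between SalB and high fat diet, where 50.5% of all tested families did not overlap, and between SalB and normal diet, where 42.7% did not. Per tRNA read without scaling, SalB and high fat diet overlapped. SalB libraries 1 (11 of 62258 reads) and 2 (27 of 156333) then lay slightly below high fat diet library 2 (5 of 28191).

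Summed over libraries, the normalised Tyr level was 2.87 times as high with SalB as on the high fat diet (95% interval 1.498 to 5.94) and 4.69 times as high with SalB as on the normal diet (2.27 to 10.9). When no family was filtered out, the log2 fold change of Tyr was 1.19 (SE 0.50, limma-voom adjusted p 0.161) with SalB against high fat diet and 1.80 (SE 0.54, limma-voom adjusted p 0.0581) with SalB against normal diet, and neither was called.

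Part of the Tyr reads was a single 3′ piece. The form from base 32 to 70 with A32T numbered 6, 6 and 2 reads in the SalB libraries, 0 in each of the 3 high fat diet libraries and 0 in each of the 3 normal diet libraries. With the groups at 0 set to 3 reads over the group, the ratio was 4.08 with SalB against high fat diet and 5.02 with SalB against normal diet. These ratios rest on the chosen 3 reads and are not lower bounds. From the counts themselves, the lower limits of the 95% interval were 2.90 and 3.57 in the same order. The form did not pass the filter on low reads. The fit without a filter called it higher with SalB against high fat diet (limma-voom adjusted p 3.33e-06) and against normal diet (limma-voom adjusted p 2.02e-06). It was named for its abundance, which came from the SalB libraries alone, so these calls lend no separate support. The second most abundant Tyr sequence, from base 13 to 30, had 6 reads, all in SalB library 2.

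The cysteine tRNA mt-Cys numbered 5, 12 and 7 reads in the SalB libraries, 8, 1 and 10 in the high fat diet libraries, and 9, 12 and 15 in the normal diet libraries. The alanine tRNA mt-Ala numbered 6, 14 and 7 reads in the SalB libraries, 7, 5 and 4 in the high fat diet libraries, and 6, 3 and 13 in the normal diet libraries. The proline tRNA mt-Pro, at the edge of the control region, numbered 4, 16 and 3 reads in the SalB libraries, 4, 1 and 5 in the high fat diet libraries, and 3, 2 and 6 in the normal diet libraries. None of the 3 passed the filter on low reads, and in each of them the groups overlapped in every comparison.

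Normalised, Cys stood at 126 ± 41.8 with SalB, 123 ± 89.6 on the high fat diet and 235 ± 107 RPM on the normal diet (SD, n = 3 each). Ala stood at 139 ± 36.4 with SalB, 117 ± 36.3 on the high fat diet and 118 ± 26.2 on the normal diet, and Pro at 104.4 ± 64.3 with SalB, 66.7 ± 37.0 on the high fat diet and 62.0 ± 2.74 on the normal diet (SD, n = 3 each). The lowest and highest libraries of the groups overlapped in each of these families. For Cys the normal diet mean was the highest, and without a filter its log2 fold change with SalB against normal diet was -1.04 (SE 0.51, limma-voom adjusted p 0.245). Ala and Cys reads came mostly from inside the tRNA, and 52 of 65 Ala reads and 64.6% of Cys reads touched neither end. Pro reads were spread over 5′ (29.5%), 3′ (34.1%) and internal pieces (36.4%).

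The WANCY families as a group held 1 tested member of 4, which was Asn, and the other light-strand families 3 of 4, and 0 were called in either in any comparison. WANCY reads summed to 751 ± 116 normalised RPM with SalB, 556 ± 143 on the high fat diet and 563 ± 83.3 on the normal diet (SD, n = 3 each). The other 4 families, led by Ser-TGA, summed to 3470 ± 962 with SalB, 3949 ± 220.2 on the high fat diet and 4988 ± 1877 on the normal diet (SD, n = 3 each). Without Ser-TGA, the light-strand sum was 1830.1 ± 297 with SalB, 1603 ± 31.98 on the high fat diet and 1369 ± 143 on the normal diet.

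Some bases of these tRNAs were often read as another base. Over all light-strand reads, leaving out the last base of each read, 0.704% of bases differed from the reference. Only reads with at most 1 mismatch are in the files, so a read with a second change is not seen. With at least 20 reads over the base and at least 10% of them changed, 4 bases stood out, in Ser-TGA, Asn, Tyr and Gln. Here too the last base of each read was left out, so a read that ends at a base is not counted over it. Without these 4 bases the rate was 0.457%.

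In Ser-TGA, 75 of the 87 reads that ran past base 29 carried a change at it, or 86.2% (Wilson 95% interval 77.4 to 91.9). It was C29T in 63 reads, C29A in 8 and C29G in 4. Another 9 reads ended at base 29 and were left out. Counted from the anticodon, base 29 is standard position 32, where mitochondrial serine tRNAs of mammals are known to carry 3-methylcytidine. The change was seen in 5 of 10 reads with SalB (50%, 23.7 to 76.3), in 36 of 39 on the high fat diet (92.3%, 79.7 to 97.3) and in 34 of 38 on the normal diet (89.5%, 75.9 to 95.8). The SalB value rests on few reads, 0 of 2 in library 1, 1 of 4 in library 2 and 4 of 4 in library 3. The form from base 1 to 30 with C29T numbered 0 reads in each SalB library, 5, 2 and 1 in the high fat diet libraries, and 1, 3 and 3 in the normal diet libraries. This form was chosen after its values were seen and did not pass the filter on low reads. The fit without a filter called it lower with SalB against high fat diet (limma-voom adjusted p 0.000158) and against normal diet (limma-voom adjusted p 0.000728). Because the choice rested on the same values, these calls lend no support to a difference.

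In Asn, 38 of 66 reads over base 9 carried a change, or 57.6% (Wilson 95% interval 45.6 to 68.8), with A9G in 27 reads, A9T in 10 and A9C in 1. Purines at position 9 of mitochondrial tRNAs are known to be methylated by the complex of TRMT10C and SDR5C1. The change was seen in 13 of 28 reads with SalB (46.4%, 29.5 to 64.2), in 11 of 21 on the high fat diet (52.4%, 32.4 to 71.7) and in 14 of 17 on the normal diet (82.4%, 59.0 to 93.8), and these intervals overlap. Base 9 is also an A in Glu, where 1 of 48 reads was changed, in Ala, where 1 of 9 was, and in Pro, where 0 of 13 were. It is a G in Tyr, where 3 of 14 reads were changed, in Gln, where 1 of 139 was, and in Cys, where 0 of 24 were.

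In Tyr, 17 of 24 reads over base 32 carried A32T, or 70.8% (Wilson 95% interval 50.8 to 85.1). Base 32 is standard position 37, next to the anticodon, which in mitochondrial tyrosine tRNA is known to carry an isopentenyl adenosine with a methylthio group. All 17 changed reads were among the 18 that started at that base, and 16 of the 17 were in SalB libraries. In Gln, A44G was seen in 8 of 46 reads (17.4%, 9.09 to 30.7), of which 7 were in SalB library 2 alone. What lies behind these changed bases was not tested, and the share of reads changed at a base was not tested between groups.

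**Figure D5:**
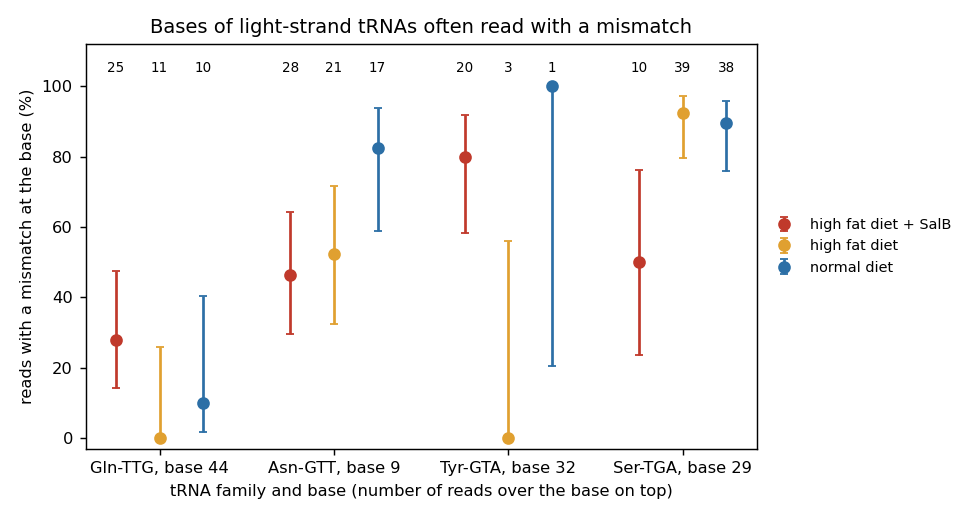
Percent of reads with a mismatch at 4 bases of light-strand tRNAs, reads of the 3 libraries of a group pooled, with Wilson 95% intervals for counting error only and the number of reads over the base on top, for high fat diet with SalB (red), high fat diet (yellow) and normal diet (blue). Reads that end at the base are left out. Asn base 9 and Ser-TGA base 29 are changed in all 3 groups, whereas Tyr base 32 is changed in 16 of 20 SalB reads with 3 reads or fewer in each other group.

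Several heavy-strand families were called in the same fit. Of 14, 7 entered the test, and with SalB against high fat diet 3 were higher and 0 lower, beside 11.7% and 14.6% of all tested families. These were mt-Gly at a log2 fold change of 1.73, mt-His at 3.94 and mt-Ser-GCT at 1.95 (limma-voom adjusted p 0.00301, 6.65e-06 and 0.000850). For high fat diet against normal diet 0 of 7 were called, as were 0% of all tested families. With SalB against normal diet 4 of 7 were higher and 0 lower, beside 15.5% and 10.7%, the same 3 and mt-Thr at 1.41 (limma-voom adjusted p 0.0495, and 0.212 when scaled by total reads). The median over the 7 was 1.31 with SalB against high fat diet and 1.41 with SalB against normal diet. The difference between the strands was not itself tested. Among the 4 mitochondrial tRNAs that carry queuosine at the first anticodon base (Asn, Asp, His and Tyr), His was called higher in both SalB comparisons, Asn was not called, and Asp and Tyr did not pass the filter.

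By the root mean square difference of centred log2 levels over the 9 libraries, the tested families most like the light-strand sum were 3 nuclear tRNA sets among 99. They were Ser-CGA at 0.372, the proline set Pro-AGG/Pro-CGG/Pro-TGG at 0.374, which shares its reads, and Val-TAC at 0.387, where the median of all 99 was 0.612. Ser-CGA stood at 601 ± 273 normalised RPM with SalB, 673 ± 159 on the high fat diet and 1026 ± 132 on the normal diet (SD, n = 3 each).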

How the data were processed

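Total RNA from serum was isolated with TRIzol and sequenced on an Illumina NextSeq instrument after ligation of adapters with a commercial tRNA fragment kit, per the labels' protocols. The submitters' processing notes name mm10 as the mouse build and edgeR, Bowtie, FastQC and cutadapt as tools, without versions or roles. The authors deposited 1 alignment list per library, in which identical reads were collapsed. Each line's read name, which the authors deposited in another form than a table, carries the count of that sequence. A test of the files showed forward alignments, to references of mature tRNAs and of precursors, with 1 mismatch at most, in reads of 14 to 40 bases. They hold tRNA reads only, so totals (28191 to 156333) are not library depths.

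Counts were read from the names, each read once, and summed by family (326 in all) and by distinct sequence (41240). A family was an amino acid and anticodon, with nuclear and mitochondrial tRNAs, and mature and precursor references, kept apart. Reads that aligned to several families formed a set of their own, and such sets count among the families. Families or sequences that reached, in at least 3 libraries, a level worth 10 reads at the median depth, and 15 reads in all, were tested (103 families, 733 sequences). limma-voom (limma 3.58.1, R 4.3.3) was fitted over all 9 libraries with TMM scaling, 1 coefficient per group, and Benjamini-Hochberg adjustment over the whole table. It takes the place of a count test because the counts stand in read names, and was tested on simulated data. Shares of starts and ends were compared by exact two-sided permutation for families with at least 10 reads in every library, which were Ser-TGA and Glu. A ratio of summed normalised reads has an exact conditional interval. Reads reaching the last encoded base or the CCA counted as 3′ reads.

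Named fragments are the 2 most abundant of each family and every called one, plus 2 Ser-TGA forms chosen after their values were seen. The members and the lists (heavy strand, WANCY, other light-strand families, queuosine tRNAs) were chosen with earlier results of these data known. RefSeq gave positions for all 8 genes. Replicate numbers in the titles mark no stated pairing and libraries of equal number did not deviate together, so the libraries were not paired. Alternatives were other scalings (RLE size factors, total reads), filters and tools, a replicate block, reads without mismatch, fits of 2 groups and leaving out each library. Mitochondrial copies in the nuclear genome were not analysed here.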

Additional observations from a re-analysis of the deposited data

How the results depend on the processing

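The light-strand families kept 0 calls in all 3 comparisons under every alternative except that leaving out normal diet library 3 called Ser-TGA with SalB against normal diet, so leaving out libraries gave 0 to 1 calls there and 0 in the other comparisons. Of 198 refitted family fold changes 183 kept their direction and side of the threshold and 14 changed direction, all among uncalled values. Scaled by total reads, SalB against high fat diet gave -0.34 for Asn and -0.28 for Gln, and SalB against normal diet -0.28 for Glu. Glu in the last comparison was also -0.013 with RLE size factors, -0.18 without a filter, -0.10 from reads with no mismatch and -0.0040 in a fit of the 2 groups alone, and Gln with SalB against high fat diet was -0.024 without a filter. Leaving out libraries gave -0.044 to 0.66 for Asn and -0.16 to 0.34 for Gln with SalB against high fat diet, -0.11 to 0.50 for Asn in high fat diet against normal diet, and -0.083 to 0.31 for Glu with SalB against normal diet. Fragment calls with SalB against normal diet, 1 in the fit reported, numbered 0 with RLE size factors, with the replicate block, with limma on log2 values, from reads with no mismatch and with only the 2 groups, 2 with total reads and with the stricter filter (6 libraries), 17 without a filter, and 0 to 1 when a library was left out. With total reads, 72 of all 733 tested fragments were called higher and 276 lower. For the stricter filter and for no filter the share over all sequences is not given for this comparison. Those 2 counts therefore say nothing particular to these tRNAs. Without a filter SalB against high fat diet gave 6 calls, where 1145 of all 41240 sequences were called. High fat diet against normal diet gave 2, the 21-base Ser-TGA form and the form from base 2 to 23, where 55 of all 41240 were. Libraries were left out only with the filter kept, which gave 0 calls in both comparisons, as did the fit reported. The calls without a filter were not refitted in that way. With the replicate block the 26-base Ser-TGA form had a log2 fold change of -1.31 (limma-voom adjusted p 0.0954) with SalB against normal diet, and the 21-base form 0.094 with SalB against high fat diet. Leaving out libraries moved the 21-base form in that comparison between -1.74 and 1.38. Same-numbered libraries correlated between -0.361 and 0.205 in their deviations from group means. Mature references alone gave a light-strand share of 0.507% with SalB, 0.539% on the high fat diet and 0.643% on the normal diet, and reads with no mismatch a high fat diet share of 19.3% of mature mitochondrial reads. Leaving out libraries gave light-strand shares of all tRNA reads of 0.287% to 0.408% with SalB, 0.474% to 0.525% on the high fat diet and 0.497% to 0.724% on the normal diet, and of mature mitochondrial reads 2.52% to 3.27%, 17.0% to 17.8% and 22.2% to 25.5% in the same order. For Glu, reads with no mismatch gave 4.52 points for starts at base 1 in high fat diet against normal diet, 3.69 in SalB against normal diet, and -3.49 for 3′ ends in high fat diet against normal diet. Leaving out libraries moved the Glu starts between -5.01 and 1.504 (SalB against high fat diet), -4.09 and 3.67 (high fat diet against normal diet) and -5.03 and 2.02 points (SalB against normal diet), and the Glu 3′ ends between -16.3 and -4.20, -4.61 and 13.7, and -15.9 and 2.36 points in the same order. Ser-TGA starts at base 1 stayed between -23.7 and -0.841, -23.2 and -16.4, and -44.2 and -21.3 points. The cause of these changes was not tested. Scaling moved the background itself: with SalB against high fat diet 12 families were higher and 15 lower as reported, against 8 and 19 with total reads, and with SalB against normal diet 16 and 11, against 8 and 13. Among fragments the splits were 109 and 139 as reported, 135 and 114 with RLE and 53 and 272 with total reads for SalB against high fat diet, and 127 and 184, 152 and 122, and 72 and 276 for SalB against normal diet. Depth limits the rest: 703 of 705 light-strand sequences and 4 of 8 families had too few reads to test, and 3 libraries per group allow no exact p under 0.1.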
